A study of Mus musculus with 36 samples.

Results

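Acod1 encodes aconitate decarboxylase 1, the mitochondrial enzyme that makes itaconate from cis-aconitate. It was 1 gene of 16812 in a table of RNA counts from the blood of Townes sickle cell mice, and it was followed here across week, dose, treatment arm and the other genes of the same libraries. The gene was chosen by its measured change over the weeks of treatment in these same counts, above all in the MIR29B arm. Its values over weeks are therefore given as a description with no test, and only its differences between arms and doses were tested. The MIR29B and scrambled libraries that enter those tests are the same ones in which the change over weeks was seen.

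RNA was sequenced from peripheral blood, labelled erythrocytes, in 36 libraries that form 12 groups of 3. Every mouse was a Townes sickle cell mouse, a humanized transgenic model of sickle cell disease, and every RNA sample was depleted of alpha- and beta-globin mRNA. Mice received a scrambled control or MIR29B, a microRNA that the series title calls cholesterol-modified, at 2 or 3 mg/kg through a mini-osmotic pump, and blood was taken at weeks 0, 2 and 4. The study asked how intermittent MIR29B dosing affects fetal hemoglobin and gene expression. The age and sex of the mice, whether week 0 blood came before the first dose, and whether the weeks come from the same animals are not given in the sources used here. Where nothing says that replicates were separate animals, the p-values measure only the spread between these samples.

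Itaconate is made in activated macrophages, monocytes and neutrophils, where Acod1 is switched on by bacterial products through Toll-like receptors and NF-kappaB and by interferons. The metabolite inhibits succinate dehydrogenase, modifies KEAP1 so that NRF2 (Nfe2l2) is released, and dampens the IkappaB-zeta (Nfkbiz) arm of inflammatory transcription. Mature red cells have no mitochondria, so in blood the transcript is chiefly known from myeloid white cells.

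On GRCm38 the gene (identifier 16365 in RefSeq) lies on chromosome 14 from 103047012 to 103056573, on the plus strand, with 5 exons in GENCODE. Its upstream protein-coding neighbour is Kctd12, from 102976581 to 102982637. A long non-coding RNA gene, Gm41235, runs from 103042475 to 103048740 on the other strand, and its span covers exon 1 of Acod1. Whether exons of Gm41235 lie in that overlap was not examined. Gm41235 had no row in the counts, and since the strand setting of the counting is not stated, any reads from it there cannot be told apart from Acod1 reads. Acod1 was counted as a single transcript.

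The promoter is shown because Acod1 was followed beside other NF-kappaB-linked genes. The bases below, read from the RefSeq promoter table on GRCm38.p6, run up to the GENCODE start at 103046977, which lies 35 bases before the RefSeq start. The capitals mark, in order, a CCAAT match on the minus strand (5′-ATTGG-3′ as printed) and a kappaB-type match to GGNNNTTCC. The bases of this kappaB-type site, GGAAATTCC, fit that pattern on both strands.
Acod1 promoter, chr14:103046762-103046976, plus strand: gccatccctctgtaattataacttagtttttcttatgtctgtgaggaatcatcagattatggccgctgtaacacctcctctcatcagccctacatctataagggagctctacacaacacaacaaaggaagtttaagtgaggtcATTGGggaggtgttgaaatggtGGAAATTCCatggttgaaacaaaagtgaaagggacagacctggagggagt
The kappaB-type match covers 85 to 77 bases before the RefSeq start and the CCAAT match 107 to 103 bases before it. A TATAAA match lies 28 to 23 bases before the RefSeq start, which places it inside GENCODE exon 1. In the 250 bases before the start of 32851 RefSeq promoters, searched on both strands, 15.7% held GGNNNTTCC, 33.8% held CCAAT and 12.4% held TATAAA, and Acod1 holds 1 match to each. The letters TGANTCA (AP-1, in 6.75% of promoters), TTCNNNGAA (GAS, 7.02%), TTGCNNAA (C/EBP, 9.56%) and GAGGAAGT (PU.1 type, 2.44%) were not found in this window. No binding was measured, and these matches are descriptions of sequence alone.

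The mature mouse miR-29 strands are shown because MIR29B is the agent of the study. Capitals mark the seed, bases 2 to 8, and the sequences come from RefSeq on GRCm38.p6. The deposited files do not give the sequence of the modified molecule that the mice received.
mmu-miR-29b-3p: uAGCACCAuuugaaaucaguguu
mmu-miR-29a-3p: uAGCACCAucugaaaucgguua
mmu-miR-29c-3p: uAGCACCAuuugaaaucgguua
All 3 share the seed AGCACCA. The Acod1 transcript of GENCODE, 2623 bases long with a 3′ UTR of 1065 bases, held 0 matches to the 8-mer site TGGTGCTA, to either 7-mer (TGGTGCT or GGTGCTA) or to the 6-mer GGTGCT. Among the 3′ UTRs of 21028 genes, 2.85% held the 8-mer and 28.3% the 6-mer.

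Libraries held 10.7 to 45.65 M counts, with a median of 29.12 M. Acod1 took 10794 counts in all and ranked 1952 of the 16812 genes by total. Its level is given in CPM, the count as a share of the library in parts per M, after TMM scaling, which corrects for library size and composition, and 11953 genes with enough counts were tested. Every count in the table was even (0 odd values), so a count of 10 may stand for fewer read pairs. Ribosomal RNA took 1.11% to 11.14% of the counts, and the 2 libraries over 5% were week 2, 2 mg/kg MIR29B replicates 2 and 3. The labelled cell type fits part of the RNA: 14 erythroid markers (Alas2, Slc4a1 and others) summed to 102000 to 259000 CPM, while markers of neutrophils and monocytes were present in every library.

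At week 0 Acod1 was low in every group. Scrambled libraries at 2 mg/kg held 1.88, 2.36 and 0 CPM in replicates 1, 2 and 3, from 34, 64 and 0 counts. At 3 mg/kg they held 1.88, 1.33 and 0.507 CPM, from 28, 24 and 10 counts. The MIR29B libraries were lower at both doses, and most of them were at or near the limit of detection. At 2 mg/kg MIR29B the values were 0.531, 0 and 0 CPM, the first from 10 counts. At 3 mg/kg MIR29B they were 0.272, 0.192 and 0 CPM, from 8, 4 and 0 counts. For the 4 libraries without a count, the limit that 3 counts would give was 0.143 to 0.393 CPM, which covers counting error only and would be larger if each fragment was counted as 2.

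At week 2 the gene was found in all 12 libraries, with wide spread inside each group. Scrambled libraries held 6.89, 0.709 and 6.06 CPM at 2 mg/kg and 2.02, 8.96 and 13.3 CPM at 3 mg/kg. MIR29B libraries held 31, 8.38 and 0.935 CPM at 2 mg/kg and 25, 7.16 and 1.59 CPM at 3 mg/kg. Replicates 1 of the MIR29B groups were the 2 highest of the week, replicate 3 of each was under 2 CPM, and the arms overlapped at both doses.

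At week 4 the highest values of the series appeared, in 1 group of each arm. MIR29B at 2 mg/kg held 104, 25.8 and 47.7 CPM, from 2672, 550 and 1062 counts, and scrambled at 2 mg/kg held 2.57, 11.6 and 4.11 CPM. These groups did not overlap. At 3 mg/kg the order was the other way: scrambled libraries held 99.6, 18.2 and 26.2 CPM, and MIR29B libraries held 18.6, 4.51 and 17.9 CPM. There the top MIR29B library lay just above the bottom scrambled library.

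**Figure D1:**
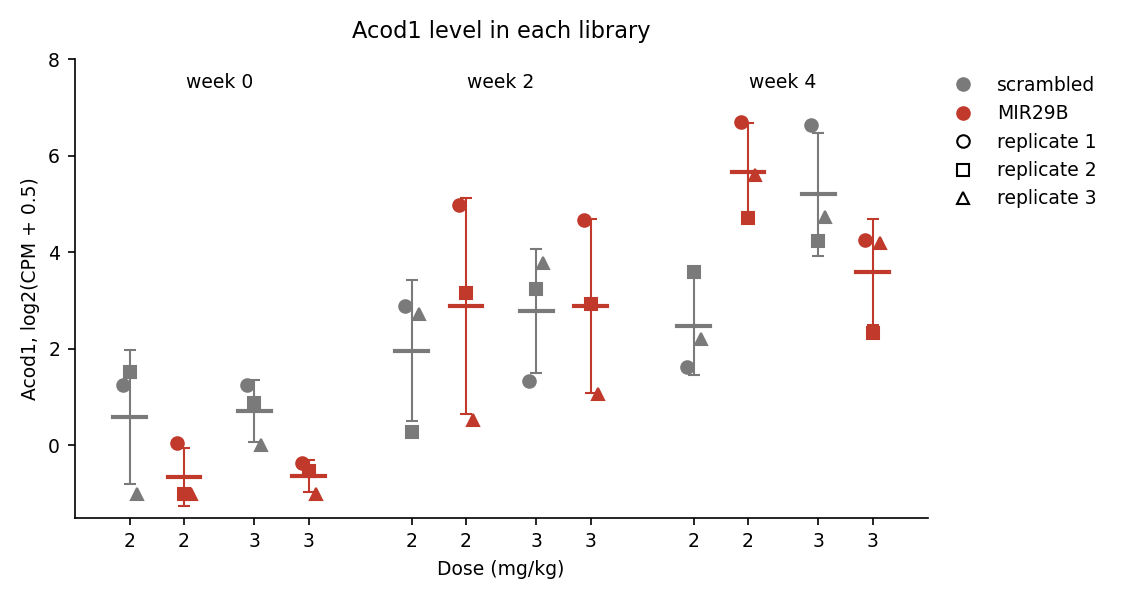
Acod1 level in each of the 36 libraries, as log2(CPM + 0.5), by week, dose in mg/kg and arm. Symbols give the replicate, horizontal bars the group mean on this scale and whiskers the SD (n = 3). Week 0 libraries lie lowest, at 0 to 2.36 CPM, and the highest libraries, at 104 and 99.6 CPM, are a MIR29B library at 2 mg/kg and a scrambled library at 3 mg/kg of week 4.

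Group means in CPM, with SD and n = 3, ran in this order. MIR29B at week 0 was lowest, at 0.155 ± 0.14 for 3 mg/kg and 0.177 ± 0.307 for 2 mg/kg, followed by week 0 scrambled at 1.24 ± 0.691 for 3 mg/kg and 1.41 ± 1.25 for 2 mg/kg. Scrambled at 2 mg/kg came next, with 4.55 ± 3.35 at week 2 and 6.1 ± 4.84 at week 4. The middle of the order was week 2 scrambled at 3 mg/kg (8.1 ± 5.7), week 2 MIR29B at 3 and 2 mg/kg (11.3 ± 12.3 and 13.4 ± 15.6) and week 4 MIR29B at 3 mg/kg (13.7 ± 7.93). The top 2 were week 4 scrambled at 3 mg/kg (48 ± 44.9) and week 4 MIR29B at 2 mg/kg (59.1 ± 40.2). Each group overlapped in range with the next in this order, so no neighbouring pair was separated beyond its spread.

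Over the weeks, Acod1 was among the genes with the largest differences in the table. Fitted with edgeR's quasi-likelihood model and averaged over doses, the log2 difference between week 2 and week 0 was 5.97 (SE 0.96) in the MIR29B arm, a fitted 62.7-fold, which placed Acod1 at rank 2 of 11953 genes from the top. Between week 4 and week 0 of that arm it was 7.17 (SE 0.99), a fitted 144-fold, at rank 1. All 6 MIR29B libraries of each later week lay above the highest MIR29B library of week 0. These folds rest on 22 counts at week 0. Without week 0, 2 mg/kg MIR29B replicate 1, which leaves that group at 0 counts, the fitted log2 values became 8.54 and 9.73, and they depend on how the model treats a group without counts. Without replicate 1 of the week 2 MIR29B groups, the week 2 value became 5.22 (2 mg/kg) or 5.28 (3 mg/kg).

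In the scrambled arm Acod1 was also higher at the later weeks. The log2 difference from week 0 was 2.19 (SE 0.77), a fitted 4.55-fold and rank 136, at week 2, when 4 of 6 libraries lay above the highest week 0 library. At week 4 it was 3.68 (SE 0.8), a fitted 12.8-fold and rank 17, and all 6 libraries lay above week 0. Between weeks 2 and 4 the log2 difference was 1.2 (SE 0.71) with MIR29B and 1.49 (SE 0.73) with the scrambled control, and the weeks overlapped in both arms.

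The arms themselves were compared at each week and dose. At 2 mg/kg of week 4, Acod1 was 59.1 ± 40.2 CPM with MIR29B and 6.1 ± 4.84 CPM with the scrambled control (SD, n = 3 each). The log2 difference was 3.28 (SE 1.08), higher in 3 of 3 MIR29B libraries, and did not pass (edgeR, unadjusted p = 0.00476, adjusted p = 1). It was 2.59 without MIR29B replicate 1 and 4.15 without scrambled replicate 2. At 3 mg/kg of the same week the log2 difference was -1.81 (SE 1.02), in the other direction (edgeR adjusted p = 1). The mean over doses was 0.73 (SE 0.71, edgeR adjusted p = 1). In all 16 comparisons of arm and dose given here, edgeR called 0% of the 11953 genes, 0 in each. At an unadjusted p under 0.05 there were 233 to 1175 genes per comparison, and DESeq2 called 0 to 76. When the filter was dropped, the calls by edgeR ran from 3 to 163 of 16812 genes over the same 16 comparisons, the most between arms at week 0.

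At week 0 the difference pointed the other way, with Acod1 lower in the MIR29B arm at both doses. The log2 difference between MIR29B and scrambled was -2.66 (SE 1.34, edgeR adjusted p = 0.876) at 2 mg/kg and -2.86 (SE 1.31, edgeR adjusted p = 1) at 3 mg/kg, where the groups did not overlap. Averaged over doses it was -2.76 (SE 0.94, edgeR unadjusted p = 0.00589, adjusted p = 0.549), from 22 counts in 6 MIR29B libraries and 160 counts in 6 scrambled libraries. The low week 0 level of the MIR29B arm is therefore part of every fold over weeks in that arm. Acod1 was chosen by those folds, so the week 0 tests are not independent of that choice, and no conclusion is drawn from them.

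At week 2 the arms lay closer together. The log2 difference was 1.56 (SE 1.03, edgeR adjusted p = 0.724) at 2 mg/kg and 0.49 (SE 1.01, edgeR adjusted p = 0.961) at 3 mg/kg. Its mean over doses was 1.02 (SE 0.72, edgeR adjusted p = 0.675), or 12.3 ± 12.6 against 6.33 ± 4.61 CPM (SD, n = 6). At 3 mg/kg the sign turned with MIR29B replicate 1, without which the log2 difference was -0.81.

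The change over weeks was then set side by side for the arms, with no test, since the gene was chosen by that change. The week 2 minus week 0 difference was larger in the MIR29B arm by 3.78 on the log2 scale (SE 1.18), and the week 4 minus week 0 difference by 3.49 (SE 1.18). Averaged over doses, the log2 difference between arms was -2.76 at week 0, 1.02 at week 2 and 0.73 at week 4. The week 4 mean joins 3.28 at 2 mg/kg with -1.81 at 3 mg/kg, and so hides differences of opposite sign. At 2 mg/kg the arms stood further apart at week 4 than at week 0 (-2.66). The week 0 mean rests on 22 counts in the MIR29B arm.

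Averaged over arms, the doses did not differ past the threshold: 3 minus 2 mg/kg gave -0.34 (SE 0.96), 0.27 (SE 0.71) and 0.43 (SE 0.7) at weeks 0, 2 and 4, with edgeR adjusted p values of 0.981, 0.957 and 1. The MIR29B effect at 3 mg/kg minus that at 2 mg/kg, a comparison added after the values were seen, was -5.09 at week 4 (SE 1.48, edgeR unadjusted p = 0.00162, adjusted p = 1) and -1.07 at week 2 (SE 1.43, adjusted p = 0.959). The opposite signs at week 4 thus did not pass over the whole table either. With no filter on low counts, 5 of the tested differences in Acod1 passed. Among them were the week 4 effect at 2 mg/kg (edgeR adjusted p = 5.62e-06) and the difference between doses at week 4 (adjusted p = 2.08e-08). DESeq2 with the filter gave adjusted p values of 1 and 0.843 for the same 2. Acod1 was chosen by its change in these libraries, and the difference between doses was added after its values were seen. No conclusion is therefore drawn from either.

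**Figure D2:**
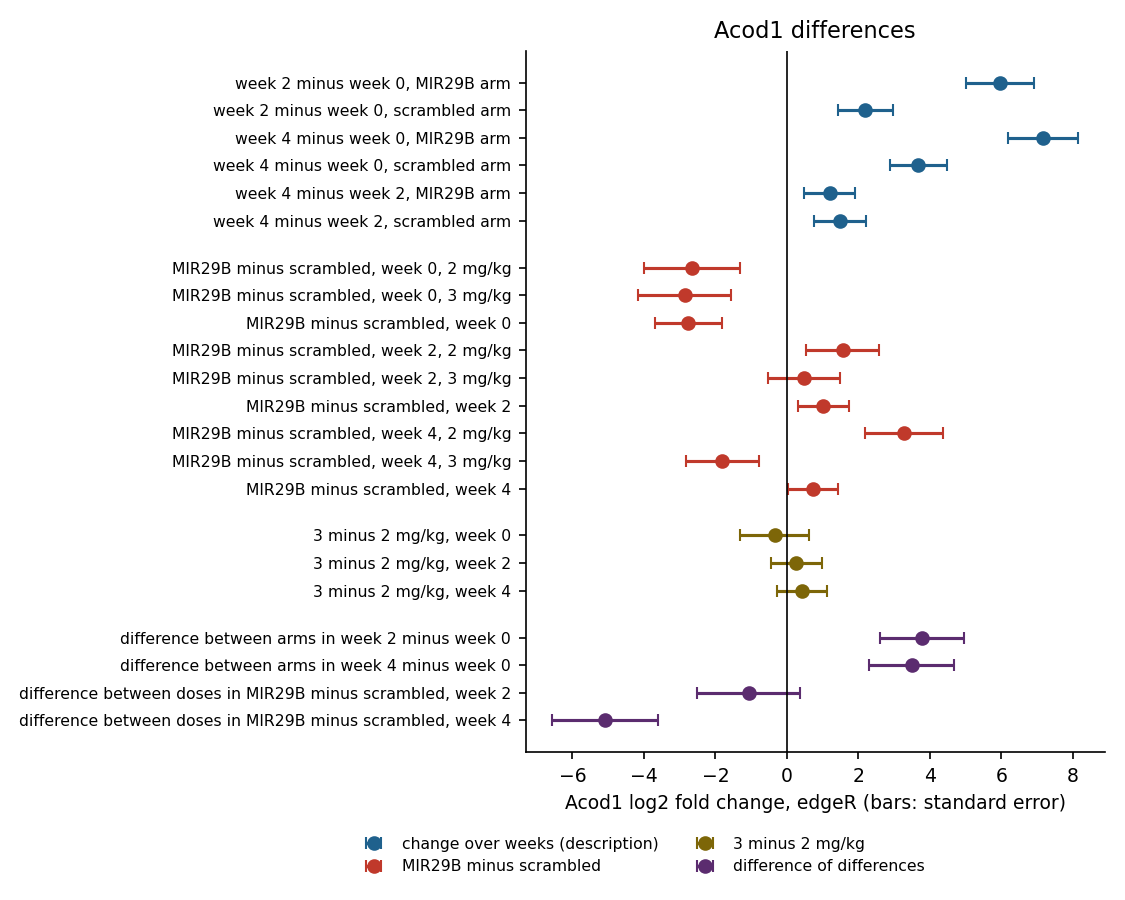
Acod1 log2 fold changes from edgeR with standard errors, for changes over weeks (a description, with no test), MIR29B minus scrambled, 3 minus 2 mg/kg, and differences of those differences. The changes over weeks are all positive, from 1.2 to 7.17, while the differences between arms are negative at week 0, positive at week 2 and of opposite sign at the 2 doses of week 4.

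Calls among other genes of the itaconate pathway were near the share over all tested genes. Among 18 tested genes for the supply, transport and breakdown of itaconate, edgeR called 0 higher and 1 lower between week 2 and week 0 of the MIR29B arm, where over all tested genes 3.45% were called higher and 1.99% lower. The gene that fell was Idh3a, a subunit of the mitochondrial isocitrate dehydrogenase, from 2.94 ± 0.519 to 1.43 ± 0.62 CPM (SD, n = 6), with a fold change on the log2 scale of -1.09 (SE 0.31, edgeR adjusted p = 0.0308). It did not pass without the 2 libraries rich in ribosomal RNA (log2 fold change -1.41, edgeR adjusted p = 0.0672) or with no filter (-1.1, adjusted p = 0.13), though neither fold was smaller. Without those 2 libraries fewer genes passed over the whole table: 1.21% of 13039 were called higher and 0.215% lower in this comparison. No gene of this list was called between week 2 and week 0 of the scrambled arm (2.11% of all genes higher, 1.1% lower), between week 4 and week 0 of the MIR29B arm (2.64% and 0.443%) or between week 4 and week 0 of the scrambled arm (0.36% and 0.1%). Between weeks 4 and 2 edgeR called 0% of all genes in either arm (1320 and 1292 at an unadjusted p under 0.05, 42 and 38 by DESeq2, for MIR29B and scrambled).

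The median log2 change of the list at week 2 was 0.16 in the MIR29B arm and 0.29 in the scrambled arm, against -0.05 and -0.01 over all genes. Oxgr1, a receptor for itaconate, and Slc13a3, a transporter that takes it up, had too few counts for a test.

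For succinate dehydrogenase, the respiratory complex that itaconate inhibits, the only genes called were Sdhaf1 and Sdhaf2, assembly factors that changed in opposite directions. Of 7 tested genes, Sdhaf1, which delivers iron-sulfur clusters to the complex, rose in the MIR29B arm from 1.81 ± 0.593 CPM at week 0 to 5.71 ± 2.69 at week 2 and 6.41 ± 1.38 at week 4 (SD, n = 6). The log2 fold changes were 1.61 (SE 0.28, edgeR adjusted p = 0.000782) and 1.81 (SE 0.28, adjusted p = 0.000101), with 6 of 6 libraries above the week 0 mean at both weeks. It also rose by week 4 of the scrambled arm, with a log2 fold change of 1.51 (SE 0.28, edgeR adjusted p = 0.00464). Sdhaf2, the flavination factor, fell by week 4 of the MIR29B arm with a log2 fold change of -0.95 (SE 0.25, edgeR adjusted p = 0.0248), a call that was lost with no filter (0.0849). By week 2 of the MIR29B arm 3.45% of all genes were called higher, and by week 4 2.64% higher and 0.443% lower. By week 4 of the scrambled arm 0.36% were called higher. The catalytic subunit Sdha was 27.4 ± 6.76 CPM at week 0 of the MIR29B arm and 28.7 ± 5.08 at week 2, a log2 change of 0.07 (SE 0.2, edgeR adjusted p = 0.898).

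Proteins and programmes on which itaconate acts were called in part. In the MIR29B arm, 4 of 23 tested genes rose by week 2: Nfkbiz, Nlrp3, Tfeb and Gapdh. The share called higher over all genes was 3.45%. Nfkbiz, whose protein IkappaB-zeta drives secondary inflammatory genes, went from 10.5 ± 4.45 to 73.2 ± 43.9 CPM (SD, n = 6), which was 2.78 in log2 fold change (SE 0.47, edgeR adjusted p = 0.000469), and was 111 ± 59.8 CPM at week 4 (log2 fold change 3.26, SE 0.48, adjusted p = 3.7e-05). Nlrp3, the inflammasome sensor, rose with a log2 fold change of 2.28 (SE 0.57, edgeR adjusted p = 0.0154) at week 2 and 2.88 (SE 0.58, adjusted p = 0.00261) at week 4. The calls of Tfeb, a lysosomal transcription factor, and Gapdh, a glycolytic enzyme, did not hold without the 2 libraries rich in ribosomal RNA (edgeR adjusted p = 0.203 and 0.134). The log2 fold change of Tfeb was then 0.79 against 1.03 with them, and that of Gapdh 0.94 against 0.85. In that setting 2 of the 23 genes were called higher, where 1.21% of all genes were.

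Keap1 and Nfe2l2, the genes of KEAP1 and NRF2, did not pass by week 2 of the MIR29B arm. Nfe2l2 was 7 ± 1.44 CPM at week 0 and 6.43 ± 2.54 at week 2 of the MIR29B arm, a log2 change of -0.11 (SE 0.29, edgeR adjusted p = 0.882), and Keap1 changed by 0.03 (SE 0.32, adjusted p = 0.978). In the scrambled arm 2 of 23 genes rose by week 2, where 2.11% of all genes were called higher. Hmox1, the heme-degrading enzyme, had a log2 fold change of 1.31 (SE 0.38, edgeR adjusted p = 0.0481, and 0.0541 without those 2 libraries), and the glycolytic enzyme Aldoa one of 1.47 (SE 0.36, adjusted p = 0.0227), with a week 2 SD of 267 CPM around a mean of 183 CPM. Nfkbiz in that arm was 27.3 ± 16 CPM at week 0 and 54.4 ± 32.8 at week 2, which did not pass (log2 fold change 0.97, SE 0.44, edgeR adjusted p = 0.207).

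Among receptors and transcription factors that induce Acod1, Cd14 and Tlr2 had the largest changes of those called. Of 26 tested genes, 5 rose by week 2 in the MIR29B arm (Cd14, Tlr2, Cebpb, Myd88 and Rela) and 3 in the scrambled arm (Cd14, Tlr2 and Cebpb), with none lower. Over all genes, 3.45% and 2.11% were called higher in the same order. Cd14, the co-receptor for bacterial lipopolysaccharide, rose from 15.8 ± 7.74 to 107 ± 29.2 CPM with MIR29B (SD, n = 6), which was 2.76 in log2 fold change (SE 0.41, edgeR adjusted p = 0.00012). In the scrambled arm it rose from 44.2 ± 20.4 to 169 ± 83.9 CPM, a log2 fold change of 1.91 (SE 0.4, edgeR adjusted p = 0.0108), and the lower week 0 level of the MIR29B arm did not pass against the scrambled arm. Tlr2, a receptor for bacterial lipoproteins, had log2 fold changes of 2.48 (SE 0.44) and 1.77 (SE 0.42) in the MIR29B and scrambled arms (edgeR adjusted p = 0.000782 and 0.0215).

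Tlr4, the lipopolysaccharide receptor itself, stayed low: in the MIR29B arm it was 2.11 ± 0.855 CPM at week 0 and 1.29 ± 0.581 at week 2 (log2 change -0.72, SE 0.53, edgeR adjusted p = 0.48). Irf1, an interferon-induced factor that binds the Acod1 gene, was 16.1 ± 5.09 and 26.6 ± 3.87 CPM at the same weeks and did not pass (log2 change 0.74, SE 0.25, edgeR adjusted p = 0.0839). Without the 2 libraries rich in ribosomal RNA, 3 of the 26 genes were called higher in the MIR29B arm at week 2, beside 1.21% of all genes. Myd88, the adaptor of Toll-like receptors, was then not called (log2 change 1.43, edgeR adjusted p = 0.055, against 1.28 with those libraries).

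Of the 7 pathway lists, the early inflammatory genes held the most calls. Of 29 tested, 14 rose and 0 fell by week 2 of the MIR29B arm, with a median log2 change of 1.84, and 16 rose by week 4, with a median of 2.1. In the scrambled arm 7 rose by week 2 (median 1.04) and 2 by week 4 (median 0.95). These counts do not rank the arms. Each is taken against week 0 of its own arm, and edgeR with the filter called no gene between the arms at any week. The all-gene medians lay between -0.05 and -0.01. Over all genes, 3.45% and 2.64% were called higher by weeks 2 and 4 with MIR29B, and 2.11% and 0.36% with the scrambled control. The lists were chosen with earlier results of these data known, so the place of this list among the 7 is a description only. Without the 2 libraries rich in ribosomal RNA, 12 rose by week 2 of the MIR29B arm, beside 1.21% of all genes.

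Tnf, the cytokine, rose in the MIR29B arm from 0.512 ± 0.583 to 5.55 ± 1.77 CPM at week 2 (SD, n = 6), which was 3.55 in log2 fold change (SE 0.6, edgeR adjusted p = 0.000469). The scrambled arm gave nearly the same values, 0.518 ± 0.398 and 5.48 ± 3.41 CPM, and a log2 fold change of 3.25 (SE 0.58, edgeR adjusted p = 0.00309). Unlike Acod1, Tnf was lower at week 4 than at week 2 in both arms, at 2.62 ± 0.691 and 1.89 ± 1.47 CPM, a comparison that did not pass. Trem1, a receptor that amplifies inflammatory signals in neutrophils and monocytes, rose at week 2 in both arms (log2 fold changes 3.11, SE 0.4, and 1.86, SE 0.38, edgeR adjusted p = 1.3e-05 and 0.00892). With MIR29B it went from 3.97 ± 1.9 to 34.6 ± 14.1 CPM, and with the scrambled control from 12.6 ± 5.98 to 45.9 ± 25.6 CPM. The larger fold with MIR29B thus went with a lower mean at both weeks. Il1b, the cytokine interleukin-1 beta, rose with MIR29B from 33.7 ± 15.6 to 139 ± 37.3 CPM (log2 fold change 2.03, SE 0.42, edgeR adjusted p = 0.00372) and was 87 ± 52 and 226 ± 104 CPM in the scrambled arm (log2 change 1.38, SE 0.41, adjusted p = 0.0557).

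Some of these genes rest on few counts. Cxcl1, a neutrophil-attracting chemokine, had 0 counts in the 6 MIR29B libraries of week 0 and 66 counts at week 2. Against 3 counts over those 6 libraries it was at least 24.7-fold higher at week 2 and at least 24.2-fold higher at week 4, and the medians of the list stayed at 1.84 and 2.1 with Cxcl1 at that bound. If every fragment added 2 to the table, which even counts allow, these bounds become 12.3-fold and 12.1-fold. Cd80, a costimulatory molecule, had 22 counts at week 0 of that arm and a log2 fold change of 3.88 (SE 0.88, edgeR adjusted p = 0.00768) at week 2. Il10, an anti-inflammatory cytokine, was called by week 2 of the scrambled arm (log2 fold change 4.26, SE 1.15, edgeR adjusted p = 0.0382) from 16 counts at week 0. The scrambled calls at week 2 depended on the samples fitted: 384 genes were called with all groups in the model, 0 with only the groups compared, and 42 to 950 as each library was left out.

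**Figure D3:**
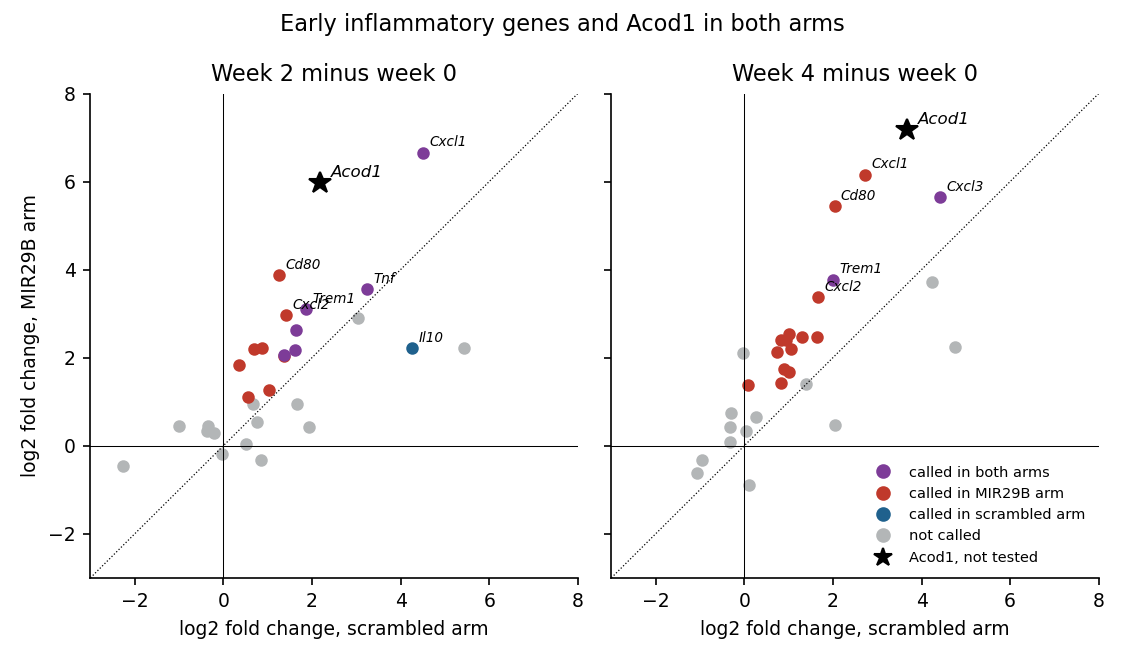
Log2 fold changes of 29 early inflammatory genes in the scrambled arm (x axis) and the MIR29B arm (y axis), for week 2 and week 4 against week 0, coloured by the arm in which edgeR called them. Acod1 (star, not tested) lies at 2.19 and 5.97 in the left panel and 3.68 and 7.17 in the right panel, and the fitted value of Cxcl1 in the MIR29B arm has no counts at week 0 behind it. The dotted line marks equal change, the arms share no libraries, and each change is taken against week 0 of its own arm.

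Among genes of glucose and arginine metabolism, by week 2 of the MIR29B arm 5 of 20 rose and 1 fell (Pdk1, which inhibits pyruvate entry to the citric acid cycle, log2 fold change -0.85), and 4 rose in the scrambled arm. Over all genes, 3.45% were called higher and 1.99% lower with MIR29B, and 2.11% higher with the scrambled control. Without the 2 libraries rich in ribosomal RNA, 3 rose and 0 fell in the MIR29B arm, beside 1.21% and 0.215% of all genes. Slc2a1, the glucose transporter GLUT1, rose at every later week of both arms, with log2 fold changes of 1.57 (SE 0.28) and 1.42 (SE 0.28) at week 2 and 2.12 (SE 0.28) and 1.76 (SE 0.28) at week 4 for MIR29B and scrambled (edgeR adjusted p = 0.000843, 0.00569, 7e-06 and 0.000702). Slc16a3, the lactate exporter MCT4, rose at week 2 by 1.85 (SE 0.36) and 1.3 (SE 0.35) in the same order (edgeR adjusted p = 0.0023 and 0.0374). The mitochondrial arginase Arg2 rose in the MIR29B arm (log2 fold change 1.61, SE 0.43, edgeR adjusted p = 0.0233).

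Of 11 iron-handling and antimicrobial genes, 2 rose by week 2 in each arm, Hp and Lcn2, which encode haptoglobin and the iron-siderophore binder lipocalin 2. Beside them, 3.45% of all genes were called higher with MIR29B and 2.11% with the scrambled control. Hp rose from 27.1 ± 11.2 to 89 ± 25.4 CPM with MIR29B (SD, n = 6; log2 fold change 1.7, SE 0.39, edgeR adjusted p = 0.00748) and from 57.3 ± 31.5 to 182 ± 80.8 CPM with the scrambled control (1.69, SE 0.39, adjusted p = 0.0171). Gbp5, an interferon-induced GTPase, fell in the MIR29B arm (log2 fold change -1.9, SE 0.54, edgeR adjusted p = 0.0326). Without the 2 libraries rich in ribosomal RNA, Gbp5 and Lcn2 were not called in that arm (edgeR adjusted p = 0.187 and 0.126). Their log2 fold changes were then -1.95 and 1.76, against -1.9 and 1.62 with those libraries.

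Markers of the white cells that make Acod1 moved with it in part. Of 20 tested neutrophil markers, 11 rose by week 2 of the MIR29B arm and 9 of the scrambled arm, with none lower, where 3.45% and 2.11% of all genes were called higher. Without the 2 libraries rich in ribosomal RNA the first count was 5, beside 1.21% of all genes, and the median log2 change of the markers was 1.55 against 1.54 with them. By week 4, 6 rose with MIR29B (S100a9, Mmp9, Csf3r, Il1r2, G0s2 and Fpr2) and 2 with the scrambled control (Il1r2 and G0s2), where 2.64% and 0.36% of all genes did. The summed level of the 22 neutrophil markers was 212 to 1380 CPM at week 0, 963 to 3290 at week 2 and 483 to 1830 at week 4 of the scrambled arm, and 199 to 662, 860 to 1870 and 637 to 1450 CPM in the MIR29B arm. Mpo and Elane, of neutrophil precursors, had too few counts for a test and were at 0 in all 6 scrambled libraries of week 0. In RNA from these blood samples, labelled erythrocytes, more cells of a type in the sample and more RNA per cell cannot be told apart.

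Single markers differed among themselves. S100a8, a calprotectin subunit, rose by week 2 from 81.3 ± 55.5 to 240.0 ± 120.0 CPM with MIR29B (SD, n = 6; log2 fold change 1.55, SE 0.42, edgeR adjusted p = 0.0266) and from 135 ± 74.2 to 542 ± 273 CPM with the scrambled control (2.03, SE 0.43, adjusted p = 0.0108). Its partner S100a9 had log2 fold changes of 1.58 (SE 0.37) and 1.64 (SE 0.38) in the same order (edgeR adjusted p = 0.0103 and 0.0171). Csf3r, the receptor for granulocyte colony-stimulating factor, rose in the MIR29B arm only by the test there (log2 fold change 1.68, SE 0.4, edgeR adjusted p = 0.00978), with 0.67 (SE 0.39, adjusted p = 0.33) in the scrambled arm, and the difference between arms was not called.

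Monocyte and macrophage markers changed less. Of 20 tested, 1 rose by week 2 and 2 by week 4 of the MIR29B arm, and 0 in the scrambled arm at either week. Over all genes, 3.45% and 2.64% were called higher at weeks 2 and 4 with MIR29B, and 2.11% and 0.36% with the scrambled control. In the MIR29B arm the sum of these markers had medians of 457, 491 and 751 CPM at weeks 0, 2 and 4 (ranges 369 to 670, 381 to 780 and 634 to 908), so that it was highest at week 4, as Acod1 was. In the scrambled arm the medians were 643, 725 and 758 CPM (ranges 311 to 1100, 423 to 2120 and 534 to 1220). None of the 20 markers was at 0 in all 6 libraries of an arm and week, and the part of these cells in the Acod1 differences was not tested. Csf1r, the monocyte growth factor receptor, was 19.2 ± 11.5 and 29.4 ± 6.31 CPM at weeks 0 and 2 of the MIR29B arm (log2 change 0.66, SE 0.37, edgeR adjusted p = 0.317). Ly6c2, of classical monocytes, and Adgre1 (F4/80), of macrophages, gave -0.25 (SE 0.28) and 0.49 (SE 0.41), with edgeR adjusted p values of 0.687 and 0.55.

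Acod1 was also divided by the neutrophil sum. This ratio was added after the values were seen. Per 1000 CPM of neutrophil markers, the median Acod1 level over 12 libraries was 0.595 CPM at week 0, 3.02 at week 2 and 18.5 at week 4. In the scrambled arm the medians were 2.39, 2.42 and 12 at weeks 0, 2 and 4, so that weeks 0 and 2 had nearly the same median. In the MIR29B arm they were 0.221, 8.02 and 32.3. The neutrophil sum itself had medians of 716, 2350 and 1200 CPM in the scrambled arm and 364, 1040 and 918 CPM in the MIR29B arm. A few single markers had other courses. Il1r2 and G0s2, picked after their values were seen, rose most between weeks 2 and 4 of the MIR29B arm among the tested markers. In the MIR29B arm Il1r2 was 1.34 ± 1.02, 17.1 ± 8.08 and 31.3 ± 19.2 CPM and G0s2 1.96 ± 0.723, 13.8 ± 9.94 and 29.2 ± 21.9 CPM at weeks 0, 2 and 4 (SD, n = 6). Neither passed between weeks 2 and 4 (edgeR adjusted p = 0.555 and 0.383). Most of the tested markers went the other way between those weeks of that arm. S100a8, for example, was 240 ± 120 CPM at week 2 and 174 ± 54.1 CPM at week 4, which did not pass either. The part of neutrophils in the Acod1 differences was not tested.

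**Figure D4:**
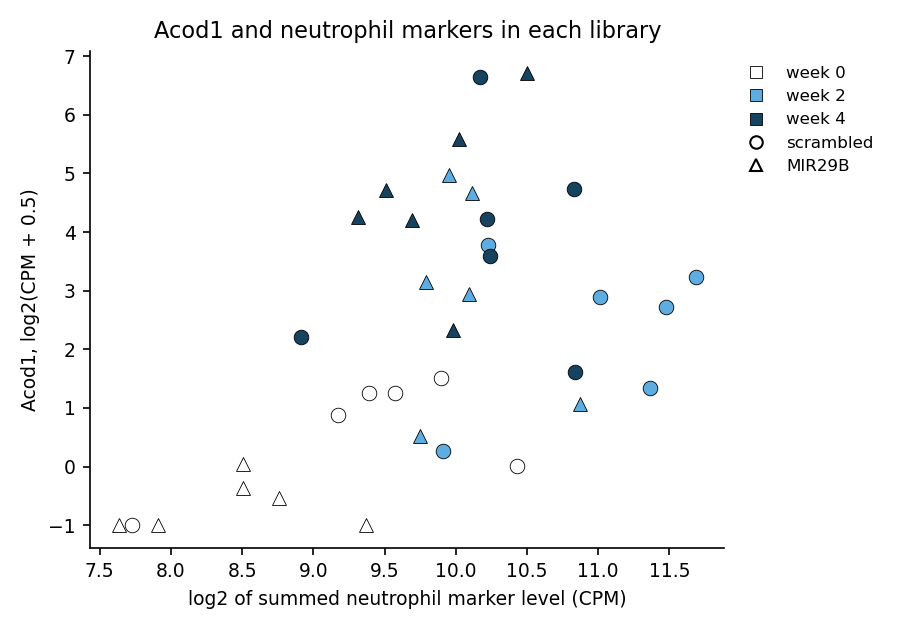
Acod1 as log2(CPM + 0.5) against the log2 of the summed level of 22 neutrophil markers in CPM, 1 point per library, with colour for week and shape for arm. Week 0 libraries lie at the lower left, week 2 scrambled libraries reach the highest neutrophil sums (up to 3290 CPM), and week 4 libraries reach the highest Acod1 levels (up to 104 CPM) at sums of 483 to 1830 CPM.

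Across the 36 libraries, the genes whose level followed Acod1 most closely included several regulators of inflammatory signalling. Likeness was taken as Spearman's rho over all libraries among 11911 other tested genes with a symbol. These correlations are a description: the points share groups, weeks, depth and cell makeup, and rho of Acod1 with library depth was 0.39. The gene nearest to it was Zc3h12a (rho 0.94), whose product Regnase-1 degrades inflammatory mRNAs, followed by the transcription factor Ets2 (0.93), Nfkbiz (0.92), the adhesion scaffold Cass4 (0.92) and the ubiquitin ligase Rnf19b (0.92). Next came Trem1 (0.91), the transcription factor Bhlhe40 (0.91), Tnfaip3 (0.89), which encodes the NF-kappaB inhibitor A20, Tlr2 (0.89) and the lamin gene Lmnb1 (0.89).

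The level of Zc3h12a was 2.11 to 7.16 CPM at week 0 (median 3.66), 6.1 to 23.7 at week 2 (median 11.7) and 6.51 to 37.7 at week 4 (median 15.7). Weeks 0 and 4 overlapped a little in Zc3h12a, where in Acod1 they did not. Ets2 ran from 1.31 to 22.9, 13.2 to 65.7 and 25.1 to 122 CPM at weeks 0, 2 and 4. Nfkbiz ran from 6.04 to 49.3, 15 to 142 and 26.8 to 206 CPM. Each of the 10 had its lowest median at week 0 and its highest at week 4.

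At the other end, Ifi47 had the lowest rho (-0.78), followed by Elp2 (-0.76), Ngrn (-0.75), Ttc33 (-0.74) and Cd200 (-0.71). Ifi47, an interferon-induced GTPase, was 11.8 to 24.7 CPM at week 0 and 3.92 to 12.4 CPM at week 2. Over all 11911 genes, 143 had a rho above 0.7 and 6 below -0.7, and the 95th percentile was 0.52.

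**Figure D5:**
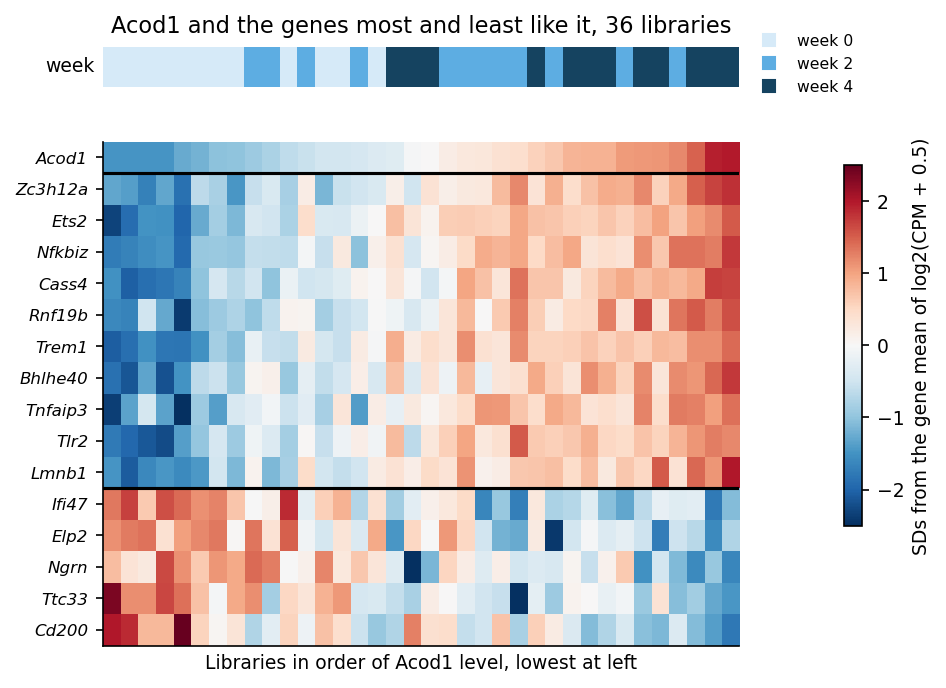
Acod1 (top row), the 10 genes with the highest Spearman rho to it and the 5 with the lowest, in 36 libraries ordered from left by Acod1 level. Colour is the distance from the mean of each gene in SDs of log2(CPM + 0.5), and the strip above gives the week. The first 8 columns on the left are all week 0, and the 10 genes beneath Acod1 go from blue to red with it while the 5 below the second line go the other way.

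Some of this likeness remained inside groups. With the mean of each group of 3 removed, the highest values were those of Cass4 (rho 0.84), Cdk5r1 (0.80), Zc3h12a (0.79), Nlrp3 (0.78) and Mon1b (0.78). Mon1b, a lysosomal trafficking gene, had a rho of 0.06 before the group means were removed, and its median was 2.22, 1.54 and 1.74 CPM at weeks 0, 2 and 4. These 5 genes were picked as the highest of 11911, whose median rho with group means removed was 0.09. The likeness of Mon1b to Acod1 between replicates was not tested. Of the 10 genes nearest to Acod1 over all libraries, 4 were among the nearest 10 with group means removed.

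By list, the early inflammatory genes had the highest median rho with Acod1, 0.57 over 29 genes, and 10 of them were above 0.7. Genes of itaconate synthesis, transport and breakdown had a median of -0.13, with none of 18 above 0.7. The highest inside the neutrophil list was Il1r2, a decoy receptor for interleukin-1 (0.86), while S100a8 was at 0.34 and S100a9 at 0.49. The summed neutrophil markers had a rho of 0.51, which was 0.1 with group means removed, and the monocyte sum 0.48 and 0.39. The eosinophil and basophil sum reached 0.76, of which Hdc, the histidine decarboxylase gene, made up a median of 73.3%, and without Hdc it was 0.42.

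Kctd12, the upstream neighbour of Acod1 on chromosome 14, did not pass over the weeks in either arm. In the MIR29B arm it was 15.1 ± 5.79, 22.8 ± 13.3 and 42 ± 19.8 CPM at weeks 0, 2 and 4 (SD, n = 6). Its week 4 log2 change from week 0 was 1.38 (SE 0.44), with an edgeR adjusted p of 0.0782, beside a log2 difference of 7.17 in Acod1.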

How the data were processed

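The deposited table holds raw counts for 25856 transcripts in 36 blood libraries, per the file headers. HISAT2 2.0.5, featureCounts 1.5.0-p3 and GRCm38 are listed in the submitters' processing notes with no roles. The annotation release, strand setting and handling of read pairs are not given in the sources used here. A RefSeq table named 25650 transcripts and GENCODE 132; 74 had no symbol and stayed in the fit unnamed. For each gene the transcript row with the most counts was used.

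Genes were filtered with filterByExpr (minimum count 10, minimum total 15), scaled with TMM and fitted with edgeR 4.0.16 in R 4.3.3, with 12 groups of 3 libraries and no covariate. Two-sided quasi-likelihood tests were adjusted by Benjamini-Hochberg over 11953 genes within each comparison, with calls at an adjusted p under 0.05. Replicates varied with a biological coefficient of variation of 0.5 (common dispersion 0.25). The fit was tested on simulated data. DESeq2 1.42.0, RLE scaling, no filter, summed transcripts, replicate terms, fewer groups and leaving out libraries were alternatives.

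Named genes were the 10 highest and 5 lowest in rho with Acod1, the 5 highest with group means removed, up to 4 called members of each list by size of change at week 2 and up to 2 at other weeks, and a short list of neighbours and markers. Genes named beyond these (Rela, Pdk1, Hdc, Il1r2, G0s2, Mmp9, Fpr2) were chosen after their values were seen. Some genes under this rule are not reported here. The planned test of the difference between arms in the change of Acod1 over weeks is not given, since it rests on the change that chose the gene. The gene and the lists were chosen with earlier results of these data known.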

Additional observations from a re-analysis of the deposited data

How the results depend on the processing

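Every Acod1 difference kept its direction under the alternatives that used all libraries, except for MIR29B minus scrambled at 3 mg/kg of week 2, which was -0.29 on the log2 scale with the replicate number as a block. Without the 2 libraries over 5% ribosomal RNA, 3 minus 2 mg/kg at week 2 turned to -0.30. With no filter on low counts, 5 tested differences in Acod1 passed that did not pass otherwise: MIR29B minus scrambled at week 0 (-2.65 at 2 mg/kg, -2.83 at 3 mg/kg, -2.74 over doses) and at 2 mg/kg of week 4 (3.25), and the difference between doses at week 4 (-5.05). The cause was not tested, and the week 0 differences rest on the same low MIR29B libraries by whose change over weeks the gene was chosen. The week 4 differences likewise share MIR29B libraries with that choice, and the difference between doses was added after its values were seen. The differences between arms in the change to week 2 and week 4, given with no test, were 3.78 and 3.47 in that setting.

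Leaving out each library in turn gave these log2 ranges where a direction or size moved: 3 minus 2 mg/kg from -0.70 to 2.25 at week 0 (highest without 2 mg/kg MIR29B replicate 1), -0.38 to 1.03 at week 2 (lowest without 3 mg/kg MIR29B replicate 1) and -0.12 to 0.87 at week 4 (lowest without 3 mg/kg scrambled replicate 1); MIR29B minus scrambled at 3 mg/kg of week 2 from -0.81 to 1.03; the difference between doses at week 2 from -2.38 to 0.44 (highest without 2 mg/kg MIR29B replicate 1); the MIR29B arm from 5.22 to 8.54 at week 2 and 6.83 to 9.73 at week 4, against week 0. Of the 10 genes most like Acod1, 4 were kept with group means removed.

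Counts of called genes moved more. For week 2 minus week 0 of the MIR29B arm, 650 genes were called, against 1095 by DESeq2 and 186 without the libraries rich in ribosomal RNA. The scrambled arm gave 384, 948 by DESeq2, 902 with no filter and 0 with only the groups compared. For week 4 minus week 0 the counts were 369 with MIR29B (782 by DESeq2, 735 with no filter, 626 with only the groups compared) and 55 with the scrambled control (137 by DESeq2, 139 with no filter).

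Same-numbered samples were not treated as paired. Their deviations correlated above 0.1 in 9 of 18 pairs of arms and 15 of 36 pairs of weeks. Differently numbered pairs were not set beside them, so this cannot decide whether the numbers mark the same animals. With the replicate block, no Acod1 difference between arms or doses passed, and the week 4 difference at 2 mg/kg was 2.91. MIR29B minus scrambled at 2 mg/kg of week 0 could not be fitted with only its own groups, since Acod1 then failed the filter. Depth limits week 0, where 22 counts carry the MIR29B arm.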
